A study of Mus musculus with 12 samples.

Results

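The 10 genes described here encode the machinery that licenses DNA replication origins: Orc1, Cdc6, Cdt1, the 6 helicase subunits Mcm2 to Mcm7, and Mcm10. They were taken by name from a table of 26742 genes, all 10 were present, and all 10 passed the filter on low counts that left 16627 genes for testing. In licensing, the origin recognition complex marks an origin, Cdc6 and Cdt1 join it, and the ring formed by Mcm2 to Mcm7 is loaded around the DNA before S phase. Mcm10 acts later, when the loaded helicase is switched on. Embryonic stem (ES) cells divide with short G1 phases and are known for loading a large amount of this helicase.

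RNA was sequenced from mouse ES cells, all labelled male, of genotype 129 or B6J, grown in medium with serum and LIF (leukaemia inhibitory factor). They received 1 µM of the MEK inhibitor PD 0325901 (iMEK) or the solvent DMSO daily through day 5, and each of the 4 groups (iMEK in 129, DMSO in 129, iMEK in B6J, DMSO in B6J) held 3 libraries. MEK is the kinase directly upstream of ERK. The labels name no clone and do not say whether a group's 3 libraries are separate cultures, so p-values cover only the variation among libraries, possibly technical, and a difference between 129 and B6J cannot be told apart from one between the lines used.

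Total counts per library lay between 62634533 and 96341637, and the 10 genes held 0.307 to 0.421% of them, with 5371 reads or more for each gene in each library. The ERK target Egr1 had 8.48, 9.90 and 6.20 CPM (counts scaled to a common library total) in iMEK 129 cells, against 189.5, 307 and 288 CPM in DMSO 129 cells, and 5 of 6 ERK targets fell in each background. Of 8 ES cell markers, 6 rose in 129, and 5 rose and 1 fell in B6J. DMSO 129 replicate 1 stood apart, with a summed level of 12 primitive endoderm markers of 8628 CPM, against 744.6 and 744.9 CPM in the other two libraries of its group. It was the lowest library of its group for all of the 10 genes but Cdc6, for which it was the highest. The summed level of 20 fibroblast markers, none at 0, was 6441 to 9961 CPM in iMEK 129 cells against 2812 to 5437 CPM in DMSO 129 cells, and 6027 to 9812 CPM in iMEK B6J cells against 4006 to 4722 CPM in DMSO B6J cells.

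RefSeq promoter windows on GRCm38.p6, from 250 bases before to 50 bases after a gene's start, were at hand for 9 of the 10 genes, with a second start for Mcm7, 10 windows in all. They are shown for the 4 genes that rose with the inhibitor in both backgrounds (Mcm3, Mcm5, Cdt1 and Orc1). Also shown are 2 of the 3 that passed the test in neither (Mcm10 and Cdc6), while Mcm4, the other, had no window. Mcm3 lies at chr1:20820263-20820562 (minus strand), Mcm5 at chr8:75109259-75109558 (plus strand) and Cdt1 at chr8:122567765-122568064 (plus strand). Orc1 lies at chr4:108579204-108579503 (plus strand), Mcm10 at chr2:5012742-5013041 (minus strand) and Cdc6 at chr11:98907901-98908200 (plus strand). Runs of 8 or more capitals mark letters of the E2F motif, and runs of 5 capitals mark CCAAT or its reverse complement ATTGG.
Mcm3: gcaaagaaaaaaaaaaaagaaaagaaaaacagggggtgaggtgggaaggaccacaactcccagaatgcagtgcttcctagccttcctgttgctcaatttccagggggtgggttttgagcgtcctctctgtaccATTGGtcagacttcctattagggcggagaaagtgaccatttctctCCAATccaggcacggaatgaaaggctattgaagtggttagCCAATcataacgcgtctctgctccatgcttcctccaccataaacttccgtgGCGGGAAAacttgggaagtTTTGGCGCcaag
Mcm5: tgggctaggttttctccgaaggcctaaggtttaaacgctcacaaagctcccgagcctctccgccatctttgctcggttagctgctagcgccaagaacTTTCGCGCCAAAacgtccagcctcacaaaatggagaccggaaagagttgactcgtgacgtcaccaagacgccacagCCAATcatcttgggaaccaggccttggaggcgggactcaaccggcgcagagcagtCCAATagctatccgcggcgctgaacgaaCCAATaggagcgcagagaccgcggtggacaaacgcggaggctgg
Cdt1: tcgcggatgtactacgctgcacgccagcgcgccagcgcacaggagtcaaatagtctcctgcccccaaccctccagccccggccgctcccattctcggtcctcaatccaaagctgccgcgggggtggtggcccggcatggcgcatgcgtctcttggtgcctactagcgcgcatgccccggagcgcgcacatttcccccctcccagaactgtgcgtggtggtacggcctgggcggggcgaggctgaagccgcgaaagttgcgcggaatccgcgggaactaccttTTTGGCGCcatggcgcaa
Orc1: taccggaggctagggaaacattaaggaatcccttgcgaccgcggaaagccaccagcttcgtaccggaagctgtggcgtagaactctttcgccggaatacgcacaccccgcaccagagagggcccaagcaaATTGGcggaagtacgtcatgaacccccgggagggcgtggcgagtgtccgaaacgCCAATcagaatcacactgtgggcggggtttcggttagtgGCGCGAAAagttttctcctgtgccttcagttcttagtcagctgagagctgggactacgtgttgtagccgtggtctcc
Mcm10: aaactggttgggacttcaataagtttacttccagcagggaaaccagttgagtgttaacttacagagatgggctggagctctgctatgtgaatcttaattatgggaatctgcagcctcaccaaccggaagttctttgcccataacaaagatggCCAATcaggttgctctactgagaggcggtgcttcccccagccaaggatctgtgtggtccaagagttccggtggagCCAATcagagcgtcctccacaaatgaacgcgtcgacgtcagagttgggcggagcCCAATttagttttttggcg
Cdc6: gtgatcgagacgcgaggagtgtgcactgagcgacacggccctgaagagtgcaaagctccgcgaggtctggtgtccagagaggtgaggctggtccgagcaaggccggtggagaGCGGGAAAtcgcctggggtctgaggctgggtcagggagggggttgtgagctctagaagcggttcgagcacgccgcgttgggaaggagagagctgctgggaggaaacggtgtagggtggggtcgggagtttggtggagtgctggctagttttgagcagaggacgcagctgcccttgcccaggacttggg

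E2F factors are the regulators best known for switching on replication genes at the entry to S phase. The 4 E2F spellings searched on both strands were TTTCGCGC, TTTGGCGC, TTTCCCGC and TTTGCCGC. They occurred in 7 of the 10 windows, those of Mcm3, Mcm5, Mcm6, Cdc6, Cdt1 and Orc1 and the first start of Mcm7, and not in those of Mcm2 and Mcm10 or the second start of Mcm7. Among all 32851 windows of this length 2.26% held one, and among 9015 windows of genes with a mean count of at least 1000 the share was 4.41%. CCAAT, searched on both strands, occurred in 8 of the 10 windows, against 37.4% of all windows. GGGCGG (an Sp1 motif, both strands, not capitalised above) also occurred in 8 of 10, against 35.7% of all windows and 67.1% of those of the more abundant genes. E2F matches overlapped each other in Mcm5 and Mcm6, and an E2F match overlapped a CCAAT match in Mcm7. Among the sequences printed above, 3 of the 4 genes that rose in both backgrounds carry both motifs and Cdt1 carries E2F letters alone, while Mcm10 carries CCAAT alone and Cdc6 carries an E2F match alone. The Cdc6 window lies inside the GENCODE gene model, which begins at chr11:98907801, so bases before that start were not searched. The Mcm5 window ends at chr8:75109558, before its GENCODE model begins at chr8:75109569. That of Mcm6 (minus strand) reaches only to chr1:128359656, with its GENCODE model starting at chr1:128359664. The Mcm10 window ends in tttggcg, so whether TTTGGCGC stands across its end could not be read.

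With the inhibitor, 6 of the 10 licensing genes rose modestly in 129 cells and 5 in B6J cells, 4 of them in both. In 129 cells Mcm2, Mcm3, Mcm5, Mcm7, Cdt1 and Orc1 rose by 1.18- to 1.29-fold. In B6J cells Mcm3, Mcm5, Mcm6, Cdt1 and Orc1 rose by 1.18- to 1.27-fold. None fell in either, and none was lower at an unadjusted p under 0.05, by DESeq2 or by limma-voom. A gene is said to have risen or fallen where edgeR's quasi-likelihood test, adjusted over all 16627 genes by Benjamini-Hochberg, gave an adjusted p under 0.05. By that rule 17.4% of all genes rose and 18.2% fell in 129, and 14.6% rose and 16.5% fell in B6J. The median log2 fold change of the 10 genes was 0.238 in 129 and 0.215 in B6J, beside -0.0101 and 0.00234 over all genes. All 3 iMEK libraries lay above all 3 DMSO libraries for 7 of the genes in 129, where 23.0% of all genes did so, and for 8 in B6J, where 24.3% did so. Mcm3, Mcm5, Cdt1 and Orc1 rose in both backgrounds, 4 of the 6 in 129 and 4 of the 5 in B6J. Over all genes, 1731 (10.4%) rose in both. In these bulk samples, more RNA per cell and more cells of a type cannot be told apart.

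**Figure D1:**
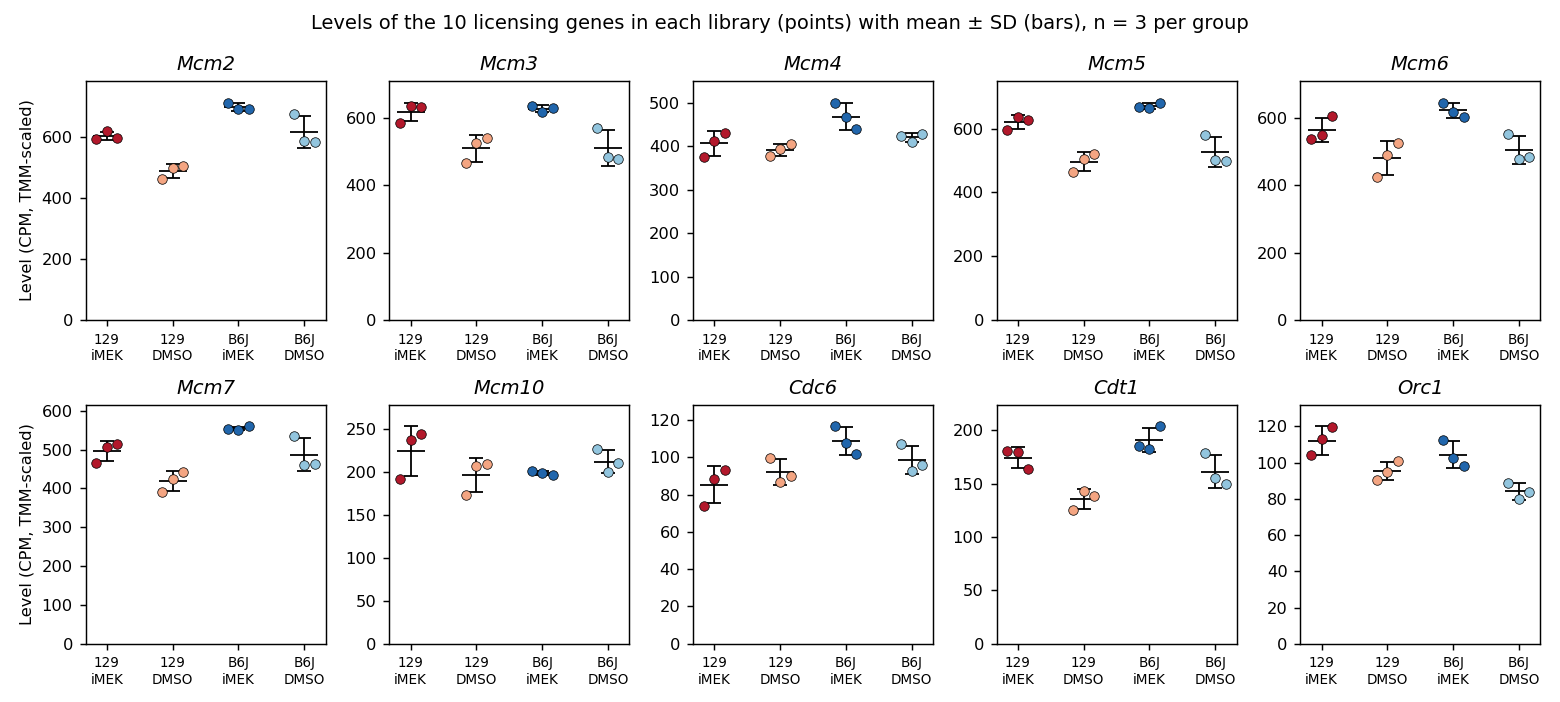
Level of each licensing gene in each library (CPM after TMM scaling, y axes from 0) for iMEK and DMSO cells of both backgrounds; points are libraries and bars are mean ± SD of 3. The iMEK points lie above the DMSO points in both backgrounds for Mcm2, Mcm3, Mcm5, Mcm6, Mcm7, Cdt1 and Orc1, and overlap them for Mcm10 and Cdc6.

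Among the loading factors, Orc1, the largest subunit of the origin recognition complex, had 104, 113 and 119 CPM in iMEK 129 cells, against 90.6, 94.7 and 100.7 CPM in DMSO 129 cells. In B6J it had 112, 103 and 98.2 CPM with the inhibitor, against 88.9, 79.8 and 83.6 CPM with DMSO. Every iMEK library was above every DMSO library of its background. The log2 fold change was 0.23 (SE 0.078, adjusted p = 0.0358, edgeR) in 129 and 0.31 (SE 0.078, adjusted p = 0.0102, edgeR) in B6J. The call in 129 ended in 6 of 24 alternatives: with a replicate block (adjusted p = 0.0606) and in the fit of the 2 129 groups alone (adjusted p = 0.0578) and without iMEK 129 replicate 2 or 3 or DMSO 129 replicate 1 or 2. The call in B6J held in all 24. A gene model, Gm12743, lies over Orc1 on the opposite strand, so its count is uncertain.

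Cdt1, which brings the helicase to the origin and is removed once S phase begins, had 180.3, 179.9 and 163 CPM in iMEK 129 cells, against 125, 143 and 139 CPM in DMSO 129 cells. Its levels in B6J were 186, 183 and 204 CPM with the inhibitor, against 179, 155 and 149.7 CPM with DMSO. The groups did not overlap in either background, and in 129 this was the largest fold change among the 10 genes, at 0.36 on the log2 scale (SE 0.085, adjusted p = 0.00628, edgeR). In B6J the change was 0.24 (SE 0.084, adjusted p = 0.0492, edgeR), and 9 of the 24 alternatives ended that call. Cdt1 shares its strand with an overlapping gene model, Gm20388, so its count is uncertain. Cdc6, the ATPase that loads the helicase together with the origin recognition complex, did not follow. It had 74.1, 88.4 and 93.3 CPM in iMEK 129 cells, against 99.96, 86.6 and 90.2 CPM in DMSO 129 cells, and 117, 108 and 102 CPM in iMEK B6J cells, against 107, 93.0 and 96.0 CPM in DMSO B6J cells. The groups overlapped in both backgrounds, with log2 fold changes of -0.11 (95% interval -0.33 to 0.10, adjusted p = 0.394, edgeR) in 129 and 0.14 (95% interval -0.08 to 0.35, adjusted p = 0.320, edgeR) in B6J. Without both 129 libraries numbered 1 its change in 129 had the opposite sign, at 0.04.

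In the helicase ring, Mcm5, which together with Mcm2 forms the gate through which DNA enters, showed the change that held best. It had 596, 638 and 627 CPM in iMEK 129 cells, against 465, 506 and 520.4 CPM in DMSO 129 cells, and 666, 665 and 681 CPM in iMEK B6J cells, against 581, 502 and 499.8 CPM in DMSO B6J cells. The iMEK libraries were above the DMSO libraries throughout, and the log2 fold changes were 0.32 (SE 0.071, adjusted p = 0.00486, edgeR) in 129 and 0.35 (SE 0.071, adjusted p = 0.00339, edgeR) in B6J. It is the one gene of the 10 whose call held in both backgrounds in all 24 alternatives tried. Mcm3 had 585, 635 and 631 CPM in iMEK 129 cells, against 465, 525 and 539.8 CPM in DMSO 129 cells. In B6J cells its levels were 636, 617 and 629 CPM with the inhibitor, against 570.4, 484 and 477 CPM with DMSO. Its rise was 0.28 in 129 (SE 0.081, adjusted p = 0.0211, edgeR) and 0.30 in B6J (SE 0.081, adjusted p = 0.0160, edgeR) on the log2 scale, with no overlap of groups in either.

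Mcm2, which also carries a histone-binding tail, had 592, 619 and 598 CPM in iMEK 129 cells, against 464, 497 and 506 CPM in DMSO 129 cells, a log2 fold change of 0.30 (SE 0.067, adjusted p = 0.00472, edgeR). In B6J it had 713, 691 and 692 CPM in iMEK cells, against 676, 586 and 584 CPM in DMSO cells. Those groups did not overlap, DMSO replicate 1 being close to the iMEK libraries, and the change of 0.18 (SE 0.067) missed the threshold with an adjusted p = 0.0588 by edgeR, while 14 of the 24 alternatives called it. Mcm6, part of the catalytic core with Mcm4 and Mcm7, had 537, 550.2 and 605 CPM in iMEK 129 cells, against 425, 490.1 and 524 CPM in DMSO 129 cells. It had 645, 619 and 602 CPM in iMEK B6J cells, against 552, 479 and 483 CPM in DMSO B6J cells. The groups were apart in both backgrounds. The log2 fold change of 0.23 in 129 (SE 0.088) had an adjusted p = 0.0567 by edgeR, and 9 of the 24 alternatives called it, DESeq2, limma-voom and the fit with the replicate block within background (adjusted p = 0.0181) among them, whereas in B6J Mcm6 rose by 0.30 (SE 0.088, adjusted p = 0.0216, edgeR).

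Mcm7 had 466, 506 and 514 CPM in iMEK 129 cells, against 391, 423 and 443 CPM in DMSO 129 cells, a rise of 0.24 in log2 (SE 0.074, adjusted p = 0.0257, edgeR). Its B6J levels of 554, 550.2 and 559 CPM in iMEK cells, against 536, 459.5 and 464 CPM in DMSO cells, did not overlap either, with a log2 fold change of 0.19 (SE 0.074) and an adjusted p = 0.0751 by edgeR, while 8 of the 24 alternatives called it. The call in 129 ended without iMEK 129 replicate 2 or 3 or DMSO 129 replicate 1 or 2. An intron of this gene hosts the microRNAs Mir106b, Mir93 and Mir25, and Ap4m1 and Cops6 overlap it on the other strand. Since the strand setting of the counting is not given in the sources used here, reads of such neighbours cannot be told apart from its own. Mcm4 was the subunit with the smallest fold changes. It had 374, 413 and 431 CPM in iMEK 129 cells, against 378, 393 and 405 CPM in DMSO 129 cells, so that the groups overlapped (log2 fold change 0.05, 95% interval -0.10 to 0.20, adjusted p = 0.586, edgeR). In B6J it had 499.9, 467 and 438 CPM in iMEK cells, against 424, 409 and 428 CPM in DMSO cells, groups that stood apart but missed the threshold (log2 fold change 0.15, 95% interval 0.00 to 0.31, adjusted p = 0.116, edgeR), and 3 of the 24 alternatives called it. Mcm10, which is not a ring subunit, had 191, 237 and 244 CPM in iMEK 129 cells, against 173, 206 and 209 CPM in DMSO 129 cells, and 201, 198 and 196 CPM in iMEK B6J cells, against 226, 199.8 and 209 CPM in DMSO B6J cells. The groups overlapped in both, and the log2 fold changes were 0.19 in 129 (95% interval -0.03 to 0.41, adjusted p = 0.158, edgeR) and -0.09 in B6J (95% interval -0.31 to 0.12, adjusted p = 0.524, edgeR). Mcm10 passed in 129 in 5 of the 24 alternatives, the replicate block within background among them (adjusted p = 0.0359).

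**Figure D2:**
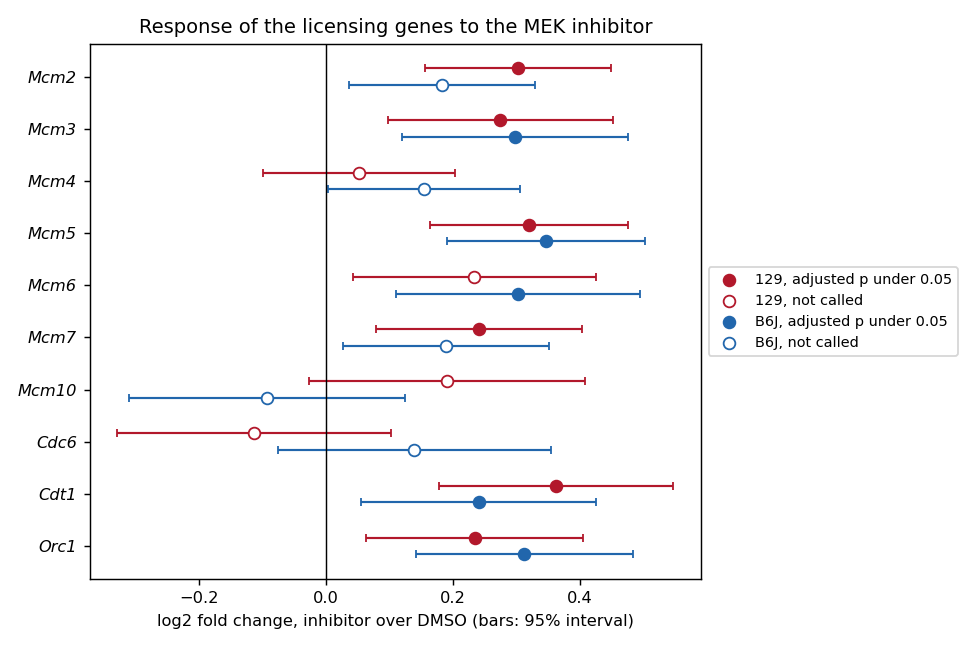
Log2 fold change, inhibitor over DMSO, of each licensing gene in 129 cells (red) and B6J cells (blue), with 95% intervals from edgeR (n = 3 libraries per group); filled points have an adjusted p under 0.05. The filled points lie between 0.23 and 0.36, and the points for Mcm10 and Cdc6 lie on either side of 0.

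Whether the 2 backgrounds responded differently was tested as the difference of the 2 log2 fold changes. It was called for none of the 10 genes (1.48% of all genes were called), and none had an unadjusted p under 0.05 or was called by DESeq2 or limma-voom. The widest differences were those of Mcm10, at -0.28 (95% interval -0.59 to 0.02, adjusted p = 0.437, edgeR), and of Cdc6, at 0.25 (95% interval -0.05 to 0.56, adjusted p = 0.503, edgeR). For Mcm5 the difference was 0.03, with a 95% interval of -0.19 to 0.25. The difference of Mcm10 was called in 2 alternatives, with the fibroblast markers as a covariate (adjusted p = 0.0432, edgeR) and without the furthest library of each group (adjusted p = 0.0250, edgeR). In those fits 4.81 and 12.3% of all genes were called.

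Between the backgrounds, Mcm2 was the gene that stood out. In DMSO cells it was 1.26-fold higher in B6J than in 129 (log2 0.33, SE 0.067, adjusted p = 0.00464, edgeR), with the B6J libraries, listed above, all over the 129 libraries. It was the only one of the 10 called there, where 10.4% of all genes were higher in B6J and 10.5% were lower. DESeq2 also called Cdt1 and Mcm7, where 12.9% of all genes were higher. The fit with the fibroblast covariate called 5 of the 10 higher, beside 15% of all genes. In iMEK cells Mcm2 (0.21, SE 0.067, adjusted p = 0.0479, edgeR) and Cdc6 (0.35, SE 0.098, adjusted p = 0.0281, edgeR) were higher in B6J, beside 8.90% of all genes. Both of those calls ended with the replicate block and without iMEK 129 replicate 1, iMEK B6J replicate 1 or iMEK B6J replicate 2, and that of Mcm2 ended in 12 of its 23 alternatives in all. Orc1 ran the other way in DMSO cells, with all B6J libraries under all 129 libraries, at a log2 difference of -0.18 (SE 0.078, adjusted p = 0.129, edgeR).

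The counts of genes that rose depended on single libraries. Without DMSO 129 replicate 1, 3 of the 10 rose in 129 (Mcm2, Mcm5 and Cdt1), where 20.3% of all genes rose. Without DMSO B6J replicate 2 or replicate 3, 2 rose in B6J, where 10.8 and 10.2% of all genes rose. Without iMEK 129 replicate 1 the counts were 8 in 129 and 8 in B6J, beside 14.9 and 15.9% of all genes. Of the 20 fibroblast markers, 15 rose in 129 and 12 rose in B6J. With their mean level as a covariate, 8 of the licensing genes rose in 129 and 7 in B6J, with medians of 0.455 and 0.318, where 13.7 and 14.3% of all genes rose. The markers' mean log2 CPM was 6.438 or more in every iMEK library and 6.192 or less in every DMSO library. That fit thus extrapolates and cannot separate the covariate from the treatment. Without the furthest library of each group (replicate 1 of iMEK 129, DMSO 129 and DMSO B6J, and replicate 3 of iMEK B6J) the counts were 8 and 9, where 25.6 and 22.3% of all genes rose, more than in the fit of all 12 libraries. Of the 12 primitive endoderm markers, 7 fell in 129 by edgeR but 1 by DESeq2 and 1 by limma-voom, and 1 fell in B6J by edgeR, 2 by DESeq2 and 1 by limma-voom. DMSO 129 replicate 1, whose omission gave the lowest count in 129, is the library in which they were high. Any other part of these markers in the results was not tested.

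**Figure D3:**
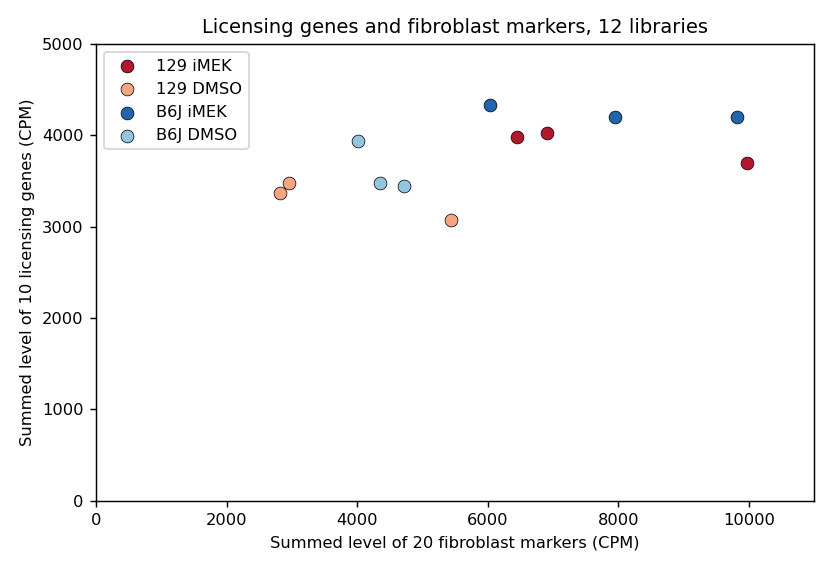
Summed level of the 10 licensing genes (y axis, CPM) against the summed level of 20 fibroblast markers (x axis, CPM) in each of the 12 libraries, coloured by group. Both sums are higher in iMEK than in DMSO cells of the same background. In 129 cells the library with the highest marker sum in each group has the lowest licensing sum of its group. Those marker sums are 9961 CPM with the inhibitor and 5437 CPM with DMSO. Which cells expressed these markers was not tested.

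Within the ring the 6 subunit RNAs lay within a 1.85-fold range of each other in each library per kb of principal transcript. Per kb of merged exons the range reached 1.98-fold, in DMSO 129 replicate 3. Using the length of the principal transcript, each gave between 10.53 and 19.82% of the summed Mcm2 to Mcm7 level (CPM per kb) in every library, and the highest subunit was 1.45 to 1.85 times the lowest. Mcm4 was the lowest in all 12 libraries, and its share was 10.9% (range 10.53 to 11.2%) in iMEK 129 cells against 12.5% (range 12.19 to 12.96%) in DMSO 129 cells, with no overlap. In B6J the share of Mcm4 was 11.4% (range 10.79 to 11.94%) in iMEK cells against 12.2% (range 11.27 to 12.97%) in DMSO cells, and these overlapped. Mcm5 took 17.65% in iMEK 129 cells against 16.79% in DMSO 129 cells, and 17.35% in iMEK B6J cells against 16.22% in DMSO B6J cells, without overlap in either background. Mcm3 had the largest share in most 129 libraries, and Mcm2 had the largest in the 3 DMSO B6J libraries. The order turns on the length used. With all exons merged, which adds most to Mcm2, Mcm2 is the lowest subunit in every library in place of Mcm4. Per kb of principal transcript the ring subunits lay above the others, with group means of 109.2 to 213.8 CPM per kb, against 62.0 to 87.1 CPM per kb for Cdt1, 40.3 to 46.0 CPM per kb for Mcm10 and 27.9 to 37.2 CPM per kb for Orc1. Cdc6 had no principal transcript and lay at 16.3 to 20.8 CPM per kb of merged exons, a scale on which Orc1 lay at 24.17 to 32.25 CPM per kb.

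**Figure D4:**
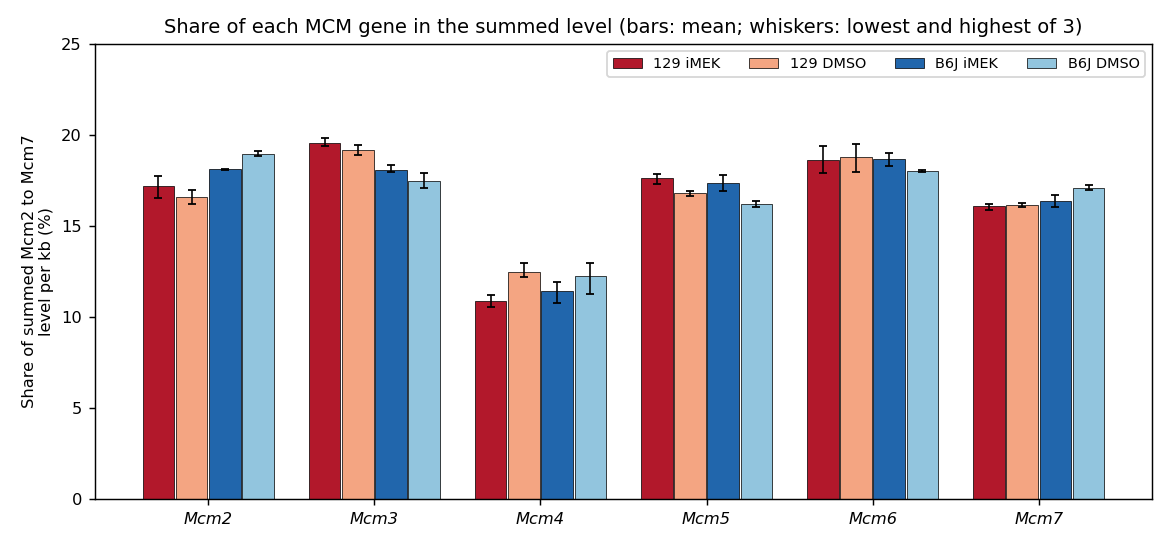
Share of each ring subunit in the summed Mcm2 to Mcm7 level, in CPM per kb of principal transcript (bars are means of 3 libraries from 0, whiskers the lowest and highest library), for the 4 groups. Mcm4 is the lowest bar in every group, and its iMEK 129 whisker ends at 11.2%, under the DMSO 129 whisker that begins at 12.19%.

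The partners of these genes in licensing and origin firing did not move as one. Of 24 such genes, 3 rose and 8 fell in 129, and 2 rose and 4 fell in B6J, with medians of -0.067 and -0.0222. Ticrr, which prepares licensed origins for firing, showed the largest change, with 185, 289 and 288 CPM in iMEK 129 cells, against 128, 173 and 179 CPM in DMSO 129 cells, and 358, 353 and 349 CPM in iMEK B6J cells, against 193, 188 and 187 CPM in DMSO B6J cells. It rose by 0.67 (adjusted p = 0.00759, edgeR) and 0.90 (adjusted p = 0.00139, edgeR) on the log2 scale, while its partner Mtbp fell, at -0.24 (adjusted p = 0.0334, edgeR) and -0.41 (adjusted p = 0.00186, edgeR). The Mtbp call in 129 ended in 9 of 24 alternatives, and its value was closest to 0 with the fibroblast covariate. On the opposite strand Kif7 overlaps Ticrr and Mrpl13 overlaps Mtbp, so both counts are uncertain. Cdc7, the kinase that phosphorylates the loaded ring, fell by 0.54 and 0.44, and Orc3, another origin recognition subunit, fell by 0.40 and 0.33, calls that 4 and 5 of 24 alternatives ended in B6J. The subunit Orc5 had means of 116.6 CPM in 129 and 110.7 CPM in B6J with the inhibitor, against 102.7 and 98.4 CPM with DMSO. Orc6 had 81.9 and 100 CPM, against 90.8 and 111 CPM. For Orc5 every iMEK library lay above every DMSO library in both backgrounds, as for 23.0% of all genes in 129 and 24.3% in B6J. Orc5 did not pass the threshold in 129, nor did Orc6 in B6J. In 129 the highest iMEK library of Orc6 had 87.3 CPM and the lowest DMSO library 87.4 CPM. The groups of Orc2 overlapped in both backgrounds. Mcm8, a relative that works with Mcm9 in DNA repair and not in licensing, also fell in both, to 20.7, 24.9 and 23.3 CPM in iMEK 129 cells, against 27.8, 32.0 and 29.5 CPM in DMSO 129 cells, and to 40.3, 37.7 and 33.3 CPM in iMEK B6J cells, against 49.9, 50.2 and 51.3 CPM in DMSO B6J cells. It was 1.70-fold higher in B6J than in 129 DMSO cells (adjusted p = 0.000185, edgeR).

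The GINS subunits, which join Cdc45 and the ring in the active helicase, differed among themselves. Gins1 (0.34, adjusted p = 0.0134, edgeR) and Gins4 (0.32, adjusted p = 0.00341, edgeR) rose in 129, and in B6J they stood at 0.24 and -0.02, where 11 of 24 alternatives called Gins1. The difference of responses was called for 0 of the 24 genes by edgeR and limma-voom and for 2 by DESeq2. Cdc45 had log2 fold changes of 0.09 in 129 and 0.13 in B6J, and Gmnn, which encodes the Cdt1 inhibitor geminin, had 0.06 and 0.19, none past the threshold. Topbp1 (-0.41) and Orc4 (-0.36) fell in 129, with values of -0.05 and -0.25 in B6J that did not pass. The Orc4 call in 129 ended in 13 of 24 alternatives. Donson, which helps assemble the active helicase, fell in 129 (-0.33, adjusted p = 0.00477, edgeR) and stood at -0.05 in B6J. Atp5o overlaps Donson on the same strand and Son on the opposite strand, so the Donson count is uncertain. With the fibroblast covariate the list stood at 4 higher and 0 lower in 129 and at 5 higher and 1 lower in B6J. The covariate did not overlap between iMEK and DMSO libraries, so that fit extrapolates and cannot settle which genes fell.

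**Figure D5:**
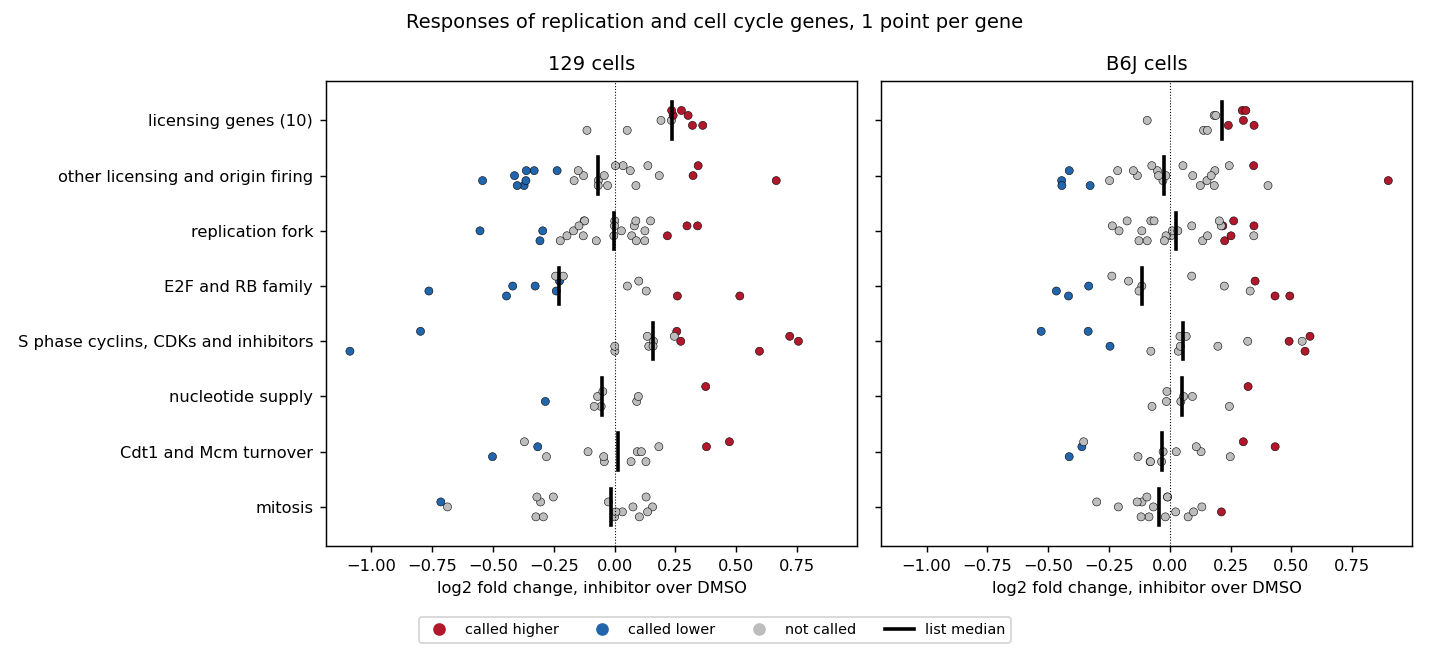
Log2 fold change, inhibitor over DMSO (x axis), of each gene in 8 lists of replication and cell cycle genes (rows), for 129 cells (left) and B6J cells (right); red and blue points rose or fell at an adjusted p under 0.05, and black bars are list medians. The licensing genes have medians of 0.238 in 129 and 0.215 in B6J, and the medians of the 7 other lists lie between -0.226 and 0.159.

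Of 25 replication fork genes, 3 rose and 3 fell in 129, and 5 rose and none fell in B6J, with medians of -0.000284 and 0.0242. Pold1, the catalytic subunit of DNA polymerase delta, rose in both (0.34 in 129 and 0.35 in B6J), as did Rpa2, a subunit of the single-strand binding complex (0.22 and 0.25), whose call in 129 ended in 7 of 24 alternatives. Pcna, the sliding clamp, rose in B6J (0.23, adjusted p = 0.0221, edgeR) and stood at 0.12 in 129 (adjusted p = 0.165, edgeR). Clspn (-0.55) and Pold3 (-0.31) fell in 129. Among 8 nucleotide supply genes, Rrm2, a subunit of ribonucleotide reductase, rose in both, with 405, 395 and 427 CPM in iMEK 129 cells, against 319, 306 and 322 CPM in DMSO 129 cells, and 610.4, 568 and 543 CPM in iMEK B6J cells, against 493, 439 and 446 CPM in DMSO B6J cells. Of 16 mitosis genes, Bub1 alone fell in 129 (-0.71, adjusted p = 0.0142, edgeR) and Kif20a alone rose in B6J (0.21, adjusted p = 0.0406, edgeR), with list medians of -0.0127 and -0.043. The Kif20a call ended in 6 of 24 alternatives. With the fibroblast covariate 4 mitosis genes rose and 0 fell in each background, with medians of 0.269 and 0.248, and 4 replication fork genes rose in 129 and 10 in B6J with 0 lower, with medians of 0.202 and 0.20.

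The E2F and RB family, regulators of this gene group, was split. Of 13 members, 2 rose and 6 fell in 129, and 3 rose and 3 fell in B6J. E2f1, an activator, rose by 0.26 (adjusted p = 0.0384, edgeR) in 129 and 0.43 (adjusted p = 0.00300, edgeR) in B6J, the call in 129 ending in 7 of 24 alternatives, and Rbl2, a pocket protein, rose by 0.52 and 0.49. The repressors E2f7 and E2f8 fell in both, by 0.76 and 0.33 in 129 and by 0.47 and 0.33 in B6J. E2f3, another activator, fell in 129 (-0.42, adjusted p = 0.00148, edgeR). E2f6, a repressor, fell in both (-0.44 and -0.42), and E2f4 fell in 129 (-0.23). Of 14 S phase cyclins, cyclin-dependent kinases and their inhibitors, 5 rose and 2 fell in 129, and 3 rose and 3 fell in B6J. Ccnd3 (0.72 and 0.58) and Cdk2 (0.27 and 0.49) rose in both and Cdk6 (-0.80 and -0.53) fell in both. Ccne1, which encodes cyclin E1, rose in 129 and fell in B6J. Ccne2, for cyclin E2, fell in 129 (-1.09, adjusted p = 0.0325, edgeR), a call that 11 of 24 alternatives ended, and stood at 0.03 in B6J. Among 14 genes of Cdt1 and Mcm protein turnover, 2 rose and 2 fell in each background: the ligase scaffolds Cul1 (-0.50 and -0.41) and Cul4a (-0.32 and -0.36) fell in both, and Lrr1, which helps remove the helicase from finished forks, rose in both (0.47 and 0.30), although 16 of 24 alternatives ended its call in B6J (adjusted p = 0.0491, edgeR). Fzr1, an activator of the anaphase-promoting complex, rose in 129 (0.38), and Traip, a ligase that removes the helicase in mitosis, rose in B6J (0.43). Traip was low there, with means of 11.3 CPM in iMEK and 8.37 CPM in DMSO B6J cells, against 65.2 and 57.5 CPM in 129. Dtl and Skp2, the receptors through which the Cul4a and Cul1 ligases recognise Cdt1, did not pass, at -0.28 and -0.11 in 129 and 0.25 and 0.03 in B6J.

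Across the 12 libraries the 45 pairs among the 10 genes had Pearson correlations of log2 CPM between -0.0488 and 0.968, with a median of 0.652, as a description of libraries that share groups and scaling. Mcm2 with Mcm7 (0.968), Mcm3 with Mcm5 (0.962) and Mcm5 with Mcm6 (0.944) were the closest pairs, and the lowest were Mcm10 with Cdc6 (-0.0488) and Cdc6 with Orc1 (-0.0356). The genes outside the list whose levels followed the mean of the 10 most closely, among 9393 genes averaging 10 CPM or more, were Parp1 (r = 0.985), which senses DNA breaks, and Msh6 (r = 0.971), a mismatch repair protein. They were followed by Chn1, Fanci, Gpa33, Hnrnpul2, Sall4, Zbtb43, Timeless and Rpap1, the last with r = 0.953. In all, 105 of those genes had r over 0.9, so likeness of this degree was shared by many genes.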

How the data were processed

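RNA from 12 libraries (3 in each of 4 groups) was extracted with Trizol and sequenced from TruSeq Stranded mRNA libraries, per the labels' protocols. The deposited values are raw whole-number counts of reads per gene, and 26742 genes were listed. STAR 2.7.10, SAMtools, HTSeq 0.6.1p1 and DESeq, with the builds mm10 and GRCm38, are named in the submitters' processing notes. How strand and multiply placed reads were treated in counting is not given in the sources used here. Even numbers made up 70.09 to 73.37% of low values (1 to 20) in a library and 52.06 to 55.17% of higher ones, so halved counts were tried. Positions and lengths came from GENCODE M21 on GRCm38.

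Genes passing filterByExpr (min.count 10, min.total.count 15) were scaled by TMM and fitted with edgeR 4.0.16 in R 4.3.3 (quasi-likelihood, 4 group means, all 12 libraries), with p-values adjusted by Benjamini-Hochberg over all 16627 genes. CPM are counts scaled to a common TMM-adjusted library total. The scripts were tested on simulated data. Alternatives were RLE scaling, DESeq2 1.42.0, limma-voom (limma 3.58.1), other filters, 2 groups alone, replicate blocks, each library left out, halved counts, and a covariate (the fibroblast markers' mean log2 CPM). The fit without the furthest library of each group, the principal transcript length and the alternatives for genes outside the 10 were added after seeing the data. Replicate numbers from the labels were checked for pairing. Same-numbered libraries deviated from their group means together in 129 (r = 0.442, 0.295 and 0.222). So did iMEK replicate 2 with DMSO replicate 3 (r = 0.194) and iMEK replicate 3 with DMSO replicate 2 (r = 0.209). Pairing by number was therefore not shown beyond replicate 1 of 129, and the main fit used no replicate block. The chi-square per degree of freedom between replicates was 7.166 or more, so no library was a copy of another.

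The 10 genes and all gene lists were chosen with earlier results of these data known. Named beside the 10 were, from each other list, genes among the 3 of lowest p, genes called in opposite directions, and direct partners or regulators of the 10; those not past the threshold are in the lists' counts where not named. The genes most alike were the 10 with the highest Pearson correlation with the mean standardised log2 CPM (prior count 2) of the licensing genes. Rpa2, Pcna, Mtbp, Rbl2, Cul1, Cul4a, Lrr1, Bub1 and Kif20a, where not among those, were chosen after their values were seen. 1 gene of the lists is not reported here by name.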

Additional observations from a re-analysis of the deposited data

Results flagged for a closer look

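Ccne1, which encodes cyclin E1, the partner of Cdk2 at the entry to S phase, responded in opposite directions in the 2 backgrounds, and the difference itself was tested. It had 279.6, 259.7 and 280.4 CPM in iMEK 129 cells, against 205, 233 and 248 CPM in DMSO 129 cells, so that every iMEK library was higher (log2 fold change 0.26, adjusted p = 0.0280, edgeR). In B6J it had 247, 239.9 and 246 CPM in iMEK cells, against 338, 296 and 291 CPM in DMSO cells, so that every iMEK library was lower (log2 fold change -0.34, adjusted p = 0.00808, edgeR). The call in 129 ended in 6 of 24 alternatives and that in B6J in 1. The difference of the responses, B6J minus 129, was -0.592 (adjusted p = 0.0317, edgeR) and stayed past the threshold in 13 of 23 alternatives, while 10 ended the call, the replicate block among them (adjusted p = 0.0689). Among the 10 licensing genes none showed such a difference.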

How the results depend on the processing

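With a replicate block, 5 of the licensing genes rose in 129 (Orc1 lost, adjusted p = 0.0606, edgeR) and 4 in B6J. The shares of all genes that rose were 16.2 and 13.4%. In iMEK cells 0 of the licensing genes differed between backgrounds, where 16.5% of all genes did. With the block within each background, 8 rose in 129 (Mcm6 and Mcm10 gained, adjusted p = 0.0181 and 0.0359, edgeR) and 6 in B6J. There 19.3 and 16.3% of all genes rose. Other alternatives gave 5 to 8 higher in 129 and 5 to 9 in B6J, the 9 without the furthest library of each group, and 0 lower throughout. In those fits 12.8 to 25.6% of all genes rose and 12.9 to 25.6% fell in 129. In B6J 11 to 22.3% rose and 11.1 to 22.9% fell. Leaving out each library in turn gave 3 to 8 higher in 129 and 2 to 8 in B6J, where 12.8 to 20.3% and 10.2 to 17.9% of all genes rose. Of the 10 genes, 1 differed in response with the fibroblast covariate and 1 without the furthest libraries, Mcm10 in both. The shares of all genes that differed were 4.81 and 12.3%. For B6J against 129 in DMSO cells the count higher was 1 to 2 with a library left out, 2 by RLE scaling, 3 by DESeq2 and 5 with the covariate. The shares of all genes higher were 7.47 to 12%, 10.7%, 12.9% and 15%. Without the furthest libraries 1 of the 10 was higher and 2 were lower, beside 19.4 and 19.3% of all genes. In iMEK cells 0 to 3 were higher and 0 to 1 lower with a library left out, beside 6.13 to 11.1% and 6.5 to 11.9% of all genes. Without both 129 libraries numbered 1, 1 was higher and 1 lower, beside 11.3 and 12.3% of all genes. Without the furthest libraries 3 were higher and 1 lower in iMEK cells, beside 16.5 and 17.9% of all genes.

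The response of Cdc6 in 129 became 0.0405 without both 129 libraries numbered 1 and 0.0433 without the furthest libraries, and that of Mcm10 in B6J became 0.18 with the covariate. The difference of responses became -0.0296 for Mcm3, -0.0101 for Mcm5 and -0.00104 for Mcm6 with the covariate, and 0.00725 for Mcm7 without the furthest libraries. With a library left out it ran between -0.025 and 0.103 for Mcm3, -0.0127 and 0.0937 for Mcm5, -0.000102 and 0.147 for Mcm6 and -0.0939 and 0.0151 for Mcm7. For B6J against 129 in DMSO cells Mcm3 became -0.0128 without a filter, -0.00672 with at least 1 CPM in 3 libraries, -0.0284 in the fit of 2 groups, -0.00262 with halved counts, -0.0592 without both 129 libraries numbered 1 and -0.149 without the furthest libraries, where it was called lower (adjusted p = 0.0154, edgeR), as was Orc1 (adjusted p = 0.00525, edgeR); Mcm3 ran from -0.0834 to 0.0507 with a library left out. Mcm6 became -0.00601 without both 129 libraries numbered 1 and -0.0782 without the furthest libraries (-0.00522 to 0.142 with a library left out), and Mcm5 and Mcm10 became -0.0358 and -0.0222 without the furthest libraries. In iMEK cells Mcm3 became -0.0118 without both 129 libraries numbered 1 and -0.0298 without the furthest libraries (-0.0201 to 0.0395 with a library left out).

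Among the other genes named, responses to the inhibitor turned in 129 for Dtl (0.0497 with the covariate) and Kif20a (-0.0112 without both 129 libraries numbered 1, -0.00873 without the furthest libraries, and -0.0521 to 0.054 with a library left out). In B6J they turned for Gins4 (0.00127 without a filter, 0.0335 with the covariate, 0.01996 without the furthest libraries, -0.0481 to 0.0333 with a library left out) and for Topbp1 (0.115 with the covariate, -0.102 to 0.0465 with a library left out). They also turned there for Clspn (0.0336) and Pold3 (0.0464) with the covariate. Donson became 0.00175 there with the covariate, and Ccne2 -0.0679 without the furthest libraries (-0.304 to 0.272 with a library left out). The ratio of the highest to the lowest ring subunit per kb was 1.80, 1.55 and 1.64 by principal transcript length in iMEK 129, DMSO 129 and iMEK B6J cells, and 1.90, 1.93 and 1.68 by merged exon length. The cause of these shifts was not tested. Samples with the same number deviated together in 129 (r = 0.442, 0.295 and 0.222), as did replicates 2 and 3 across numbers (r = 0.194 and 0.209). In B6J same-numbered samples did not (r = -0.188, 0.0883 and -0.17). With at least 5371 reads for each licensing gene in each library, the spread between libraries and not the read depth limits these comparisons.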
